A study of Mus musculus with 2 samples.

Results

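The 9 genes described here encode the dystrophin-glycoprotein complex of muscle or its close partners: Dmd, Utrn, Dag1, Sgca, Sgcb, Sgcd, Dtna, Sntb1 and Sspn. They were matched by symbol, and all 9 of 9 were found among the 32285 genes counted. The data are single-nucleus RNA counts from the tibialis anterior muscle of the shin. The donors were male mice with chronic kidney disease, 16 to 20 weeks old. All muscles were taken 5 days after the femoral artery had been tied. There are 2 libraries, 1 labelled AHRfl/fl and 1 labelled AHRmKO, so no value has a replicate and no difference carries a p-value. The labels give the same strain text for both: a floxed Ahr allele, AHRtm3.1Bra/J, and the transgene Tg(ACTA1-cre/Esr1*)2Kesr/J, in which a skeletal actin promoter drives a Cre recombinase fused to a modified oestrogen receptor. The labels do not give the number of animals pooled into a library.

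The complex links the actin cytoskeleton of a muscle fibre to the basement membrane around it. Dystrophin, from Dmd, is the long rod under the membrane, and utrophin, from Utrn, is its relative, known from fetal and regenerating fibres and from the neuromuscular junction. Dystroglycan, from Dag1, spans the membrane and binds laminin, and the sarcoglycans (Sgca, Sgcb, Sgcd) and sarcospan (Sspn) form a subcomplex beside it. Dystrobrevin, from Dtna, and syntrophin, from Sntb1, sit on the cytoplasmic side and recruit signalling proteins. Loss of dystrophin, of a sarcoglycan or of the sugar chains of dystroglycan causes muscular dystrophies.

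Dmd spans 2257.27 kb of chromosome X (82948870 to 85206141, plus strand of GRCm38) with 23.8 kb of exon, and Sgca spans 13.5 kb of chromosome 11 (94962791 to 94976327, minus strand) with 1.74 kb of exon. Utrn lies on chromosome 10 (12382188 to 12869365, minus strand). RefSeq promoter windows on GRCm38.p6, from 250 bases before a start site to 50 after it, were used for 7 of the 9 members. No window was found for Sntb1, and none was used for Dtna. Those of Dmd, Utrn and Sgca are shown because these genes ordered the fibre nuclei in different ways below. The Dmd and Sgca windows lie at the 5′ end of the annotated gene, while the start site of the Utrn window lies 7630 bases inside it, so the windows are not matched in position. Capitals mark each E-box, CANNTG, the site bound by myogenic helix-loop-helix factors, which was found on either strand.

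Dmd, chrX:82948620-82948919, plus strand: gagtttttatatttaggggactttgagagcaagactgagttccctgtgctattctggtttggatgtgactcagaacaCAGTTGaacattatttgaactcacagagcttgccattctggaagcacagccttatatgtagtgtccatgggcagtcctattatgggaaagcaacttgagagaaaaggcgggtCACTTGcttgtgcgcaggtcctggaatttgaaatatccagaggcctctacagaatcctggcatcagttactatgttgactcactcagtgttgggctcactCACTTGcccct
Utrn, chr10:12861686-12861985, minus strand: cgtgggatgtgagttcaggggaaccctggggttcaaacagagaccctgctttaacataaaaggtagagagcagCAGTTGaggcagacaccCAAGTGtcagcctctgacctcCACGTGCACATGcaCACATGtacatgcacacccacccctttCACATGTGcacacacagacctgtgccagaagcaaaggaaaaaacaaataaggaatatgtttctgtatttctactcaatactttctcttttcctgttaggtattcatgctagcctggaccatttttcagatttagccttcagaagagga
Sgca, chr11:94976278-94976577, minus strand: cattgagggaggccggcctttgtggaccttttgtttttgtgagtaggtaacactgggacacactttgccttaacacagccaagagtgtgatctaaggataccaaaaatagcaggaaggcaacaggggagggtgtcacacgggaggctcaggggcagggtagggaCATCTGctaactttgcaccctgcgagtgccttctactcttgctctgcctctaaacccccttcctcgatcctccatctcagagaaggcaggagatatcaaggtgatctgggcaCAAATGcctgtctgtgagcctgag

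The Dmd window held 3 E-boxes, the Utrn window 7, some of which overlap, and the Sgca window 2. An E-box is common, since 72.3% of all 32851 windows held at least 1. The Dmd window also held 1 CArG box, 98 bases before the start site, and 1 MEF2 box, 244 bases before it, which occurred in 1.63% and 3.19% of all windows. The core GCGTG, part of the element to which AHR binds, was absent from these 3 windows. It was found in the windows of Sgcb and Dag1 and in the second window of Dmd, and in 32.4% of all windows. A match is a run of letters and shows no binding.

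Nuclei were taken as barcodes with at least 2000 unique molecular identifiers (UMIs, each a captured RNA molecule). That left 19056 barcodes for the AHRfl/fl library and 9015 for the AHRmKO library, with a median of 3803.5 and 3596 UMIs. In the order AHRfl/fl then AHRmKO, which pairs of library values below follow unless another order is stated, the libraries held 151788328 and 113737134 UMIs. Of these, 59.3% and 38.5% fell in these barcodes. Mitochondrial genes took 1.98% and 4.88% of the UMIs in nuclei, and Gm42418, which overlaps ribosomal RNA, was at 3250 and 27047 CPM. The 2 libraries shared 43 barcodes. Levels are UMIs in every 1000000 UMIs of a class (CPM), and the ranges given are exact 95% intervals that cover counting error only. Ahr was at 24.0 and 22.0 CPM in Myh3-low fibre nuclei and at 34.8 and 32.1 CPM in Myh3-high ones. Counts taken from the 3′ end of a transcript need not cover the floxed part of Ahr, so they do not check the label.

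Fibre nuclei were those in which Ttn, Neb, Trdn and Dmd together made at least 1% of UMIs, and they were split at 0.1% of UMIs in Myh3, the embryonic myosin heavy chain of new fibres. There were 1790 and 1850 Myh3-low and 3354 and 1921 Myh3-high fibre nuclei. Dmd is part of that rule, so its height in fibre nuclei is in part set by the choice. Without Dmd in the rule 5012 and 3753 fibre nuclei remained, against 5144 and 3771. Near the limits lay 813 and 497 nuclei with 0.8% to 1.25% of UMIs in the 4 fibre genes, and 893 and 174 fibre nuclei with 0.08% to 0.125% in Myh3. Myh3 made 0.291% and 0.0427% of UMIs in droplets of 200 to under 500 UMIs, which are too poor in RNA to be counted as nuclei here. The Myh3 limit was therefore below the level in such droplets of the library labelled AHRfl/fl. The other classes were scored on markers and came to 3135 and 1080 satellite cells or myoblasts, 1516 and 631 fibroadipogenic progenitors or fibroblasts, 5724 and 2279 macrophages or monocytes, 333 and 219 endothelial and 469 and 135 adipocyte nuclei.

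Dystrophin and utrophin RNA had different maps over these classes. Dmd was a fibre gene, though the fibre rule, which holds Dmd, in part sets its level and detection there. It was at 5958 and 3785 CPM in Myh3-low and 5803 and 3065 CPM in Myh3-high nuclei. In the other 5 classes of the library labelled AHRfl/fl Dmd lay between 112 and 274 CPM, within the 79.8 to 318 CPM estimated for free RNA. In the library labelled AHRmKO the estimate was 80.6 to 152 CPM, and satellite cells (176 CPM) and endothelial nuclei (191 CPM) lay above it, while the other 3 classes had 106 to 150 CPM. After each nucleus was thinned to 2000 UMIs, 77.0% and 58.3% of Myh3-low fibre nuclei had a Dmd UMI, against 17.3% and 25.1% of macrophages. Before thinning the shares were 83.9% and 69.9% in those fibre nuclei, at a median of 5012.5 and 3447.5 UMIs, and 26.4% and 38.3% in macrophages, at 2919 and 3183. Utrn was detected in every class. It was highest in endothelial nuclei of the library labelled AHRmKO (1440 CPM, 1372 to 1510) and in Myh3-high fibre nuclei of the library labelled AHRfl/fl (1186 CPM, 1171 to 1201). Endothelial nuclei of the latter had 1094 CPM (1045 to 1144). Utrn in satellite cells was at 948 and 836 CPM, in adipocytes at 743 and 856, in fibroadipogenic nuclei at 579 and 634, and in macrophages, the lowest class in both libraries, at 416 and 422. Myh3-low fibre nuclei, taken whole, had 795 and 581 CPM, below endothelial nuclei and satellite cells in each library. Their Myh1/Myh2-led part, a subset described below, had 1134 and 327 CPM. The first of these was above satellite cells and within the interval of endothelial nuclei of that library.

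Among the 7 classes taken whole, Dag1, the laminin receptor, was highest in satellite cells, at 810 CPM (795 to 824) and 640 CPM (620 to 661). The second interval overlapped that of Myh3-low fibre nuclei of the library labelled AHRmKO, which had 617 CPM (600 to 635). The part of these fibre nuclei low in adult myosin, a subset described below, was higher, at 747 CPM. That part also carried the satellite cell marker Pax7, and its Dmd was at 607 CPM. The Myh4-led and Myh1/Myh2-led nuclei of the same library, also described below, had Dag1 at 335 and 393 CPM. The Myh3-low fibre nuclei of the other library had 469 CPM (456 to 482). Macrophages had 213 and 85.0 CPM. Free Dag1 RNA was estimated at 134 to 146 CPM with the label AHRfl/fl and at 26.5 to 29.2 CPM in the other, and its part in the non-fibre levels was not tested. Droplets of 200 to under 500 UMIs had Dag1 at 813 and 226 CPM, the first within the interval of satellite cells of that library.

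The sarcoglycans did not share 1 map. Sgca, the sarcoglycan restricted to striated muscle, was at 46.0 and 40.1 CPM in Myh3-low and 54.5 and 97.7 CPM in Myh3-high fibre nuclei. Satellite cells had 17.6 and 15.0 CPM. In the other classes it had 6.57 to 9.30 CPM in the library labelled AHRfl/fl, where free RNA was estimated at 8.40 to 14.7 CPM. In the 135 adipocyte nuclei of the library labelled AHRmKO no Sgca UMI was found, which allows up to 3.78 CPM. Sgcb was flatter, at 77.8 and 62.1 CPM in Myh3-low fibre nuclei, 87.0 and 80.2 in Myh3-high ones, 64.8 and 50.9 in satellite cells and 31.5 and 13.5 in macrophages. Droplets of 200 to under 500 UMIs had 118 and 36.0 CPM of Sgcb, the first above all 7 classes of its library. Free Sgcb RNA was estimated at 19.4 to 28.9 CPM with the label AHRfl/fl and at 4.02 to 4.65 CPM in the other. Its part in these levels was not tested.

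Sgcd, the delta-sarcoglycan, had a higher level in adipocytes than in either fibre class as a whole. It was at 411 CPM (386 to 437) and 473 CPM (431 to 518) in adipocytes and at 184 and 230 CPM in fibroadipogenic nuclei. Fibre nuclei had 188 and 144 CPM when Myh3-low and 211 and 114 CPM when Myh3-high, but parts of the fibre classes reached the adipocyte level: 411 CPM in Myh4-led nuclei with the label AHRfl/fl and 541 CPM in Myh1/Myh2-led nuclei with the label AHRmKO, subsets described below. The share of thinned nuclei with an Sgcd UMI did not follow these levels with the label AHRfl/fl. It was 21.5% in adipocytes, 21.6% in Myh3-high fibre nuclei, 18.3% in Myh3-low ones and 22.3% in fibroadipogenic nuclei. With the label AHRmKO it was 35.6% in adipocytes, against 13.9%, 17.7% and 23.6% in the other classes, in the same order. In satellite cells, from which fibre nuclei arise, Sgcd was at 11.6 and 8.12 CPM, and in macrophages at 9.46 and 8.80. Those values lay within the 4.69 to 15.9 CPM estimated for free RNA. Sspn, which binds the sarcoglycans, was as high in satellite cells as in many fibre nuclei: 54.6 and 54.7 CPM, against 41.9 and 34.0 in Myh3-low and 56.1 and 89.5 in Myh3-high nuclei.

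Among the 7 classes both cytoplasmic partners were highest in Myh3-high fibre nuclei of each library, though for Dtna parts of the Myh3-low nuclei were higher: with the label AHRfl/fl both the Myh4-led (1472 CPM) and the Myh1/Myh2-led part (1356 CPM), and with the label AHRmKO the Myh1/Myh2-led part (951 CPM). Dtna had 1292 and 771 CPM in Myh3-high nuclei and 999 and 402 CPM in Myh3-low nuclei. Dtna was at 160 and 91.9 CPM in satellite cells and at 17.4 to 54.2 CPM in the other classes, where free RNA was estimated at 16.7 to 66.1. Sntb1 had 1785 and 1236 CPM in Myh3-high and 1043 and 531 CPM in Myh3-low fibre nuclei, and kept 588 and 402 CPM in satellite cells. Adipocytes had 262 and 178 CPM of Sntb1, above macrophages at 87.2 and 53.7.

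**Figure D1:**
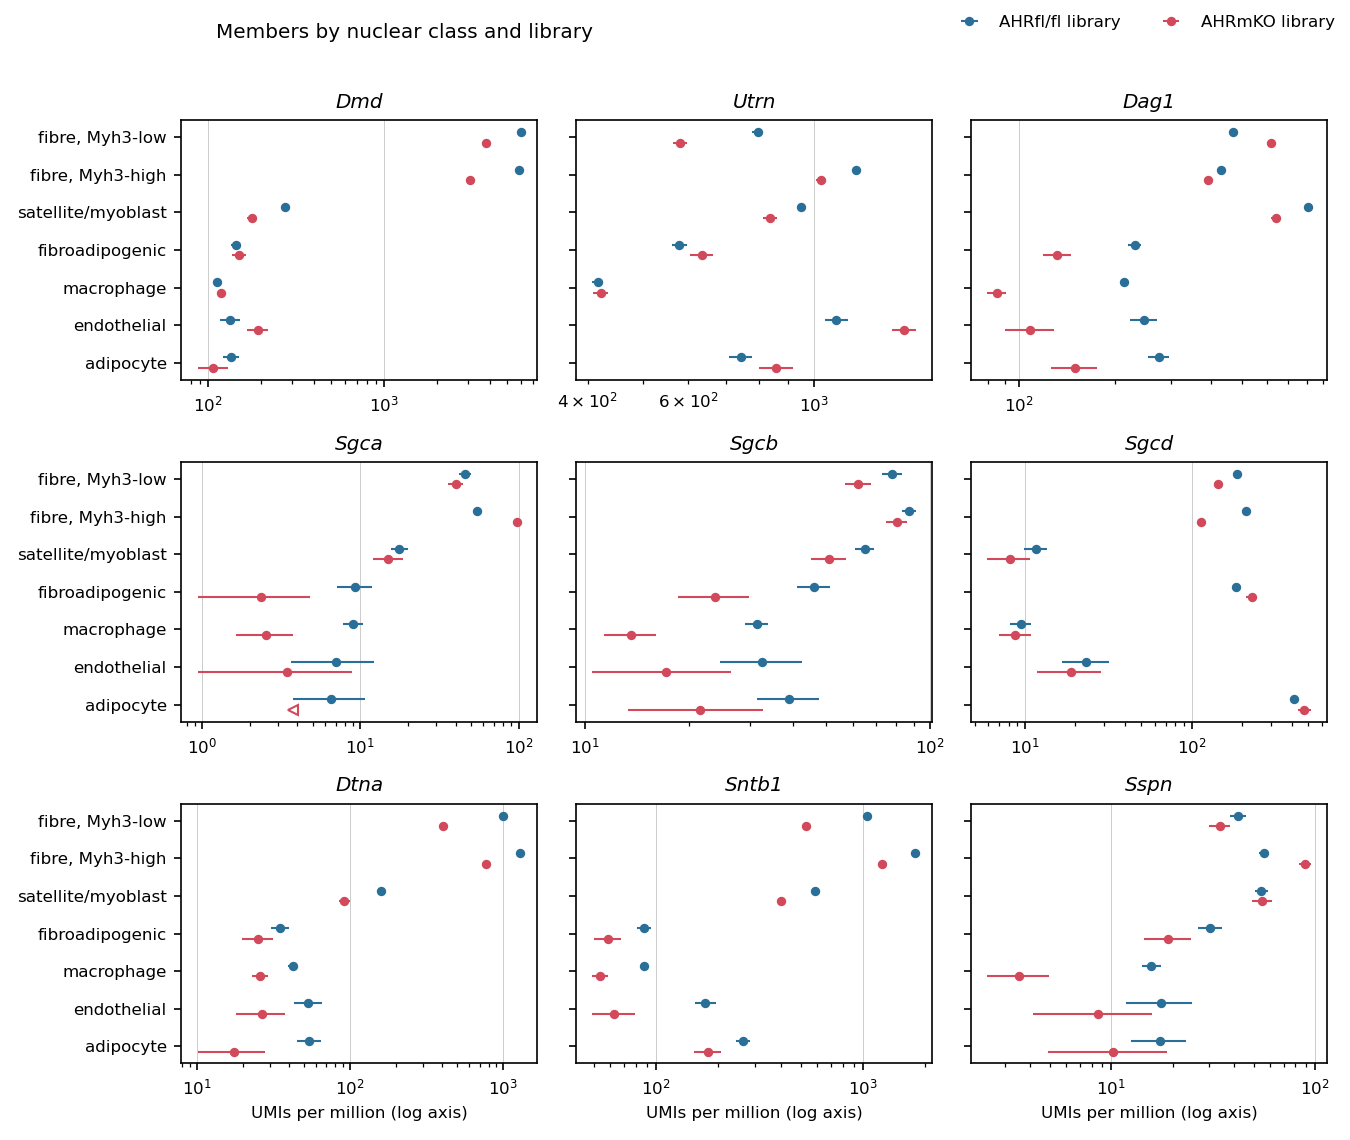
Level of each member (CPM, log axis) by nuclear class; points are the library labelled AHRfl/fl (blue) or AHRmKO (red), bars are exact 95% counting intervals, and the open triangle is the upper limit for a count of 0. Dmd, Dtna and Sgca are fibre genes, Dmd in part by the fibre rule, and Utrn is spread over all classes. Among these 7 classes, with the fibre classes taken whole, Dag1 is highest in satellite cells and Sgcd in adipocytes.

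Levels of different members can be set side by side as they are or per length, and the order depends on which is used. Undivided, Dmd was above Sntb1 and Dag1 in both fibre classes of each library. Per kb of exon, Dmd was at 250 and 159 CPM per kb in Myh3-low fibre nuclei, above Sntb1 at 196 and 99.8. In Myh3-high nuclei Sntb1, at 335 and 232 CPM per kb of exon, was above Dmd at 244 and 129. Per 100 kb of gene span, the scale on which intronic reads would count, Dag1 was at 791 and 1041 CPM in Myh3-low nuclei, above Dmd at 264 and 168. Counting from the 3′ end need not follow either length.

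The next comparison asks how Myh3-high fibre nuclei differ from Myh3-low ones within a library. A member is called apart at 2-fold or more, among genes with at least 30 UMIs over both sides. In the library labelled AHRfl/fl 0 of 9 members were called, where 5.72% of all 15828 genes were (1.48% higher and 4.24% lower). In the library labelled AHRmKO 3 of 9 were called, all higher in Myh3-high nuclei, where 7.16% of 13624 genes were called higher, 15.5% lower and 22.7% in either direction. The median log2 ratio of the 9 members was 0.24 and 0.82, and that of all genes -0.15 and -0.32.

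The 3 called members were Sspn, Sgca and Sntb1. Sspn was at 34.0 CPM in Myh3-low and 89.5 in Myh3-high nuclei of the library labelled AHRmKO, a log2 ratio of 1.39 (1.20 to 1.59), and at 41.9 and 56.1 CPM in the other library (0.42, 0.26 to 0.58). Sgca had a log2 ratio of 1.29 (1.10 to 1.47) in the library labelled AHRmKO and 0.24 (0.09 to 0.40) in the other. Sntb1 had 1.22 (1.17 to 1.27) and 0.77 (0.74 to 0.81) in the same order. Utrn, under the limit in both, had 0.82 (0.77 to 0.87) in the library labelled AHRmKO and 0.58 (0.54 to 0.61) in the other. Dtna had 0.94 (0.879 to 0.997) and 0.37 (0.34 to 0.40), and Sgcb 0.37 (0.21 to 0.53) and 0.16 (0.04 to 0.28), again with AHRmKO first. These 6 genes were higher in Myh3-high nuclei in both libraries and under median-of-ratios scaling. When the Myh3-low side was limited to nuclei with adult myosin, Dtna and Sgca in the library labelled AHRfl/fl turned to -0.13 and -0.01 and Sspn fell to 0.02. Dtna in the other library was then at 0.03. With the label AHRfl/fl Dtna kept its sign under 20 of 22 alternatives.

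Dmd and Dag1 had ratios under 0 in both libraries, but the sign depended on the setting. Dmd had a log2 ratio of -0.30 (-0.33 to -0.28) in the library labelled AHRmKO and -0.04 (-0.05 to -0.02) in the other, and median-of-ratios scaling turned these to 0.02 and 0.11. Of 22 alternatives 19 and 18 kept the sign of Dmd, and its highest values were 0.33 in the library labelled AHRmKO, with a minimum of 5000 UMIs, and 0.53 in the other, with a fibre rule of 0.5%. Its lowest, -1.74 and -0.68 in the same order, came with the Myh3-low side limited to adult myosin. Dag1 had -0.65 (-0.71 to -0.59) in the library labelled AHRmKO and -0.13 (-0.18 to -0.08) in the other. Scaling moved these to -0.33 and 0.02, and the first was 0.14 with the Myh3-low side limited to adult myosin. The second was 0.13 without fibre nuclei above the satellite marker background. With Dmd left out of the fibre rule the Dmd ratios were -0.31 with the label AHRmKO and -0.06 with the label AHRfl/fl. The share of thinned nuclei with a Dmd UMI went the other way from these ratios. With the label AHRfl/fl it was 77.0% (75.0 to 78.9) in Myh3-low and 84.9% (83.7 to 86.1) in Myh3-high nuclei. With the label AHRmKO it was 58.3% (56.0 to 60.6) in Myh3-low and 73.9% (71.9 to 75.9) in Myh3-high nuclei. Sgcd pointed down in the library labelled AHRmKO (-0.34, -0.46 to -0.22) and up in the other (0.17, 0.09 to 0.25), and the second was -0.06 without fibre nuclei above the satellite marker background and -0.72 against adult-myosin nuclei. The first was 0.14 with a fibre rule of 0.5% and -0.02 under median-of-ratios scaling.

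In finer steps of Myh3 the levels of Sspn, Sgca, Utrn and Sntb1 were higher at the top than at the bottom. From fibre nuclei with under 0.05% of UMIs in Myh3 to those with 0.4% or more, Sspn went from 33.4 to 69.7 CPM with the label AHRfl/fl and from 32.0 to 112 CPM with the label AHRmKO. Sgca went from 42.1 to 64.3 and from 39.0 to 117 CPM. Utrn went from 625 to 1131 and from 560 to 1157 CPM, and in the first of these the level at 0.2% to under 0.4% was higher, at 1252. Sntb1 went from 803 to 1540, over a peak of 1975, and from 458 to 1299 CPM. Dmd had its highest level in the lowest step, 7248 and 4149 CPM, and its lowest in the step of 0.4% or more in the library labelled AHRfl/fl (4578 CPM) and in the step of 0.05% to under 0.1% in the other (1494 CPM). The steps held 207 to 1807 and 174 to 1676 nuclei.

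**Figure D2:**
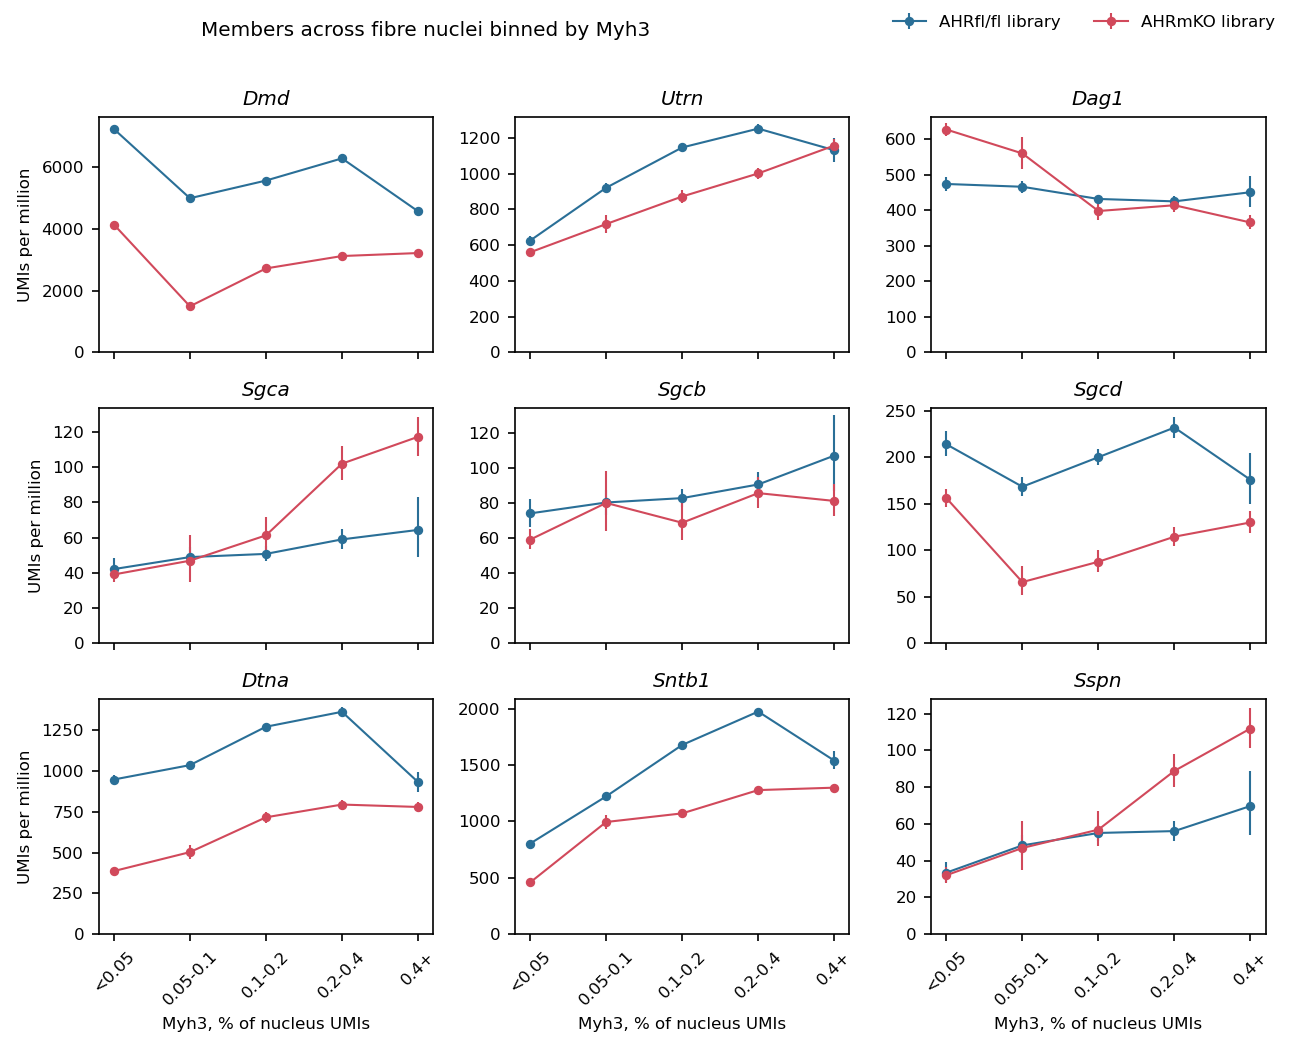
Level of each member (CPM, axis from 0) in fibre nuclei grouped by the share of their UMIs in Myh3 (percent), for the library labelled AHRfl/fl (blue) and AHRmKO (red); bars are exact 95% counting intervals. Sspn and Sgca climb over all 5 steps in the library labelled AHRmKO, while Dmd is highest in the lowest step of both libraries.

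Myh3-low fibre nuclei were mixed in the markers they carried. The Pax7 level, a satellite cell marker, was 87.6 and 344 CPM in them, against 850 and 1024 CPM in satellite cells, and 598 of 1790 and 933 of 1850 of these nuclei stood above the satellite marker background. None of the 7 satellite markers was at 0 in either library. In Myh3-high nuclei 914 of 3354 and 859 of 1921 stood above that background. Being above it took at least 3 satellite marker UMIs and 3-fold their share in macrophages of the same library. That share was 155 and 73.1 CPM, so the limit differed between the libraries. Pax7 was at 101 and 534 CPM in fibre nuclei with 1% to under 2% of UMIs in the 4 fibre genes and at 28.8 and 38.1 CPM in those with 5% or more. Without the nuclei above the satellite marker background, an alternative chosen after seeing the data, the Myh3-high over Myh3-low log2 ratio in the library labelled AHRmKO was 2.50 for Sspn, 1.79 for Sntb1, 1.64 for Utrn and 1.36 for Sgca. It was -1.06 for Dmd and -1.09 for Sgcd, so that 6 of 9 members passed 2-fold, where 27.5% of all genes did, against 3 of 9 with them. In the library labelled AHRfl/fl Sntb1, at 1.11, was the 1 member past 2-fold, where 6.78% of all genes were.

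Adult fibre nuclei were therefore also picked, after these values had been seen, as Myh3-low fibre nuclei with at least 3 UMIs and 0.1% of UMIs in the adult myosins Myh4, Myh1 and Myh2. In 335 and 430 of them Myh4, the fastest myosin, led, and in 256 and 255 Myh1 and Myh2 led. Pax7 was at 62.3 and 73.4 CPM in the Myh4-led and at 75.9 and 95.7 CPM in the Myh1/Myh2-led nuclei. In 8 and 2 nuclei the adult myosins tied, and these are in neither subset. The nuclei under the adult-myosin limit, 1191 and 1163 of them, had Pax7 at 96.2 and 474 CPM and Dmd at 4237 and 607 CPM.

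Against Myh4-led nuclei Dmd and Sgcd were lower, and Utrn and Sntb1 higher, in Myh3-high nuclei of both libraries. Dmd was at 10693 and 9412 CPM in Myh4-led nuclei and at 5803 and 3065 CPM in Myh3-high ones, log2 ratios of -0.88 (-0.90 to -0.86) and -1.62 (-1.65 to -1.59). Sgcd went the same way, from 411 to 211 CPM (-0.96, -1.07 to -0.85) and from 303 to 114 CPM (-1.41, -1.57 to -1.26). Utrn was at 652 and 275 CPM in Myh4-led and 1186 and 1026 CPM in Myh3-high nuclei, ratios of 0.86 (0.78 to 0.95) and 1.90 (1.76 to 2.04). Sntb1 differed most among the 9 in both libraries: from 365 to 1785 CPM (2.29, 2.19 to 2.40) and from 147 to 1236 CPM (3.07, 2.89 to 3.26).

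Sspn (17.6 to 89.5 CPM, ratio 2.35) and Sgca (38.8 to 97.7 CPM, ratio 1.33) were also over 2-fold higher in Myh3-high nuclei of the library labelled AHRmKO. In the other library they had 0.30 (-0.01 to 0.62) and 0.03 (-0.26 to 0.34). By the 2-fold limit 1 of 9 members was called in the library labelled AHRfl/fl (12.5% of all genes) and 6 of 9 in the one labelled AHRmKO (32.2%). Dag1 was at 435 and 335 CPM in Myh4-led nuclei and differed by less than 0.4 on the log2 scale from Myh3-high nuclei in both (-0.02 and 0.23). The ratios against all Myh3-low nuclei and against Myh4-led nuclei share the Myh3-high side. Myh1/Myh2-led nuclei were not set against Myh3-high ones as a ratio. With the label AHRfl/fl they had Utrn at 1134 CPM, Sspn at 66.5 and Sgca at 57.1, against 1186, 56.1 and 54.5 CPM in Myh3-high nuclei. With the label AHRmKO the values were 327, 24.4 and 63.4 CPM, against 1026, 89.5 and 97.7 CPM.

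**Figure D3:**
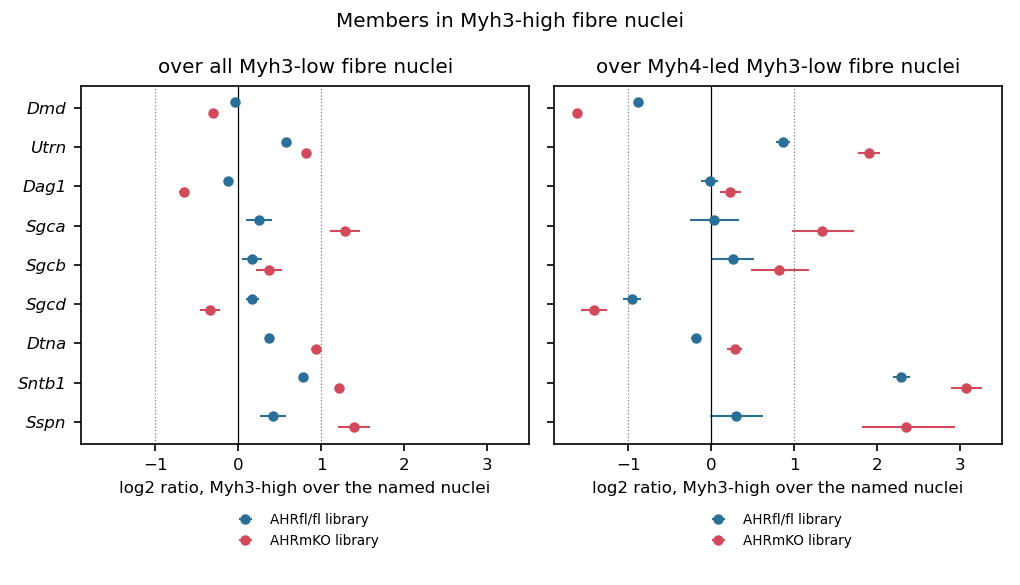
Log2 ratio of each member in Myh3-high fibre nuclei over all Myh3-low fibre nuclei (left) and over Myh4-led Myh3-low fibre nuclei (right), in the library labelled AHRfl/fl (blue) and AHRmKO (red). Bars are exact 95% counting intervals, dotted lines are 2-fold; Sntb1 and Utrn lie right of 0 in each panel, and Dmd lies left of -0.8 in the right panel.

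Between the adult types, Myh1/Myh2-led nuclei of the library labelled AHRfl/fl had more Utrn than Myh4-led ones (1134 against 652 CPM, log2 ratio 0.80, 0.70 to 0.90) and more Sntb1 (863 against 365 CPM, 1.24, 1.11 to 1.37). They had less Dmd (7637 against 10693 CPM) and less Sgcd (276 against 411 CPM). In the library labelled AHRmKO Sntb1 was at 148 and 147 CPM in these nuclei (0.01, -0.29 to 0.31) and Utrn at 327 and 275 CPM (0.25, 0.04 to 0.46). Dmd and Sgcd there were higher in Myh1/Myh2-led nuclei, at 11508 against 9412 CPM and 541 against 303 CPM. At 2-fold 1 of 9 members was called in the library labelled AHRfl/fl (5.17% of all genes) and 0 of 9 in the one labelled AHRmKO (9.43%). Myh3 was at 492 and 617 CPM in the Myh4-led and Myh1/Myh2-led nuclei of the AHRfl/fl library, against 122 and 120 CPM in those of the other, and its part in these values was not tested.

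The comparison between libraries sets the one labelled AHRmKO, a muscle knockout by its label, against the one labelled AHRfl/fl, with 1 library on each side. In Myh3-low fibre nuclei 1 of 9 members was called, where 30.6% of all 14726 genes were (12.2% higher and 18.3% lower). In Myh3-high nuclei 0 of 9 were called, where 26.2% of 15413 genes were (6.88% higher and 19.3% lower). The median log2 ratio of the 9 members, AHRmKO over AHRfl/fl, was -0.39 and -0.21, and that of all genes -0.02 and -0.15. The called member was Dtna, at 999 and 402 CPM in Myh3-low nuclei, a log2 ratio of -1.31 (-1.37 to -1.26). The call ended with adult-myosin nuclei alone (-0.91) and without fibre nuclei above the satellite marker background (-0.84). Dtna had -0.74 (-0.78 to -0.71) in Myh3-high nuclei. Sntb1 came close in Myh3-low nuclei, with -0.97 (-1.03 to -0.92), and had -0.53 (-0.56 to -0.50) in Myh3-high ones.

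Dmd had a log2 ratio of -0.65 (-0.67 to -0.63) in Myh3-low and -0.92 (-0.94 to -0.90) in Myh3-high nuclei. Utrn had -0.45 (-0.50 to -0.40) and -0.21 (-0.24 to -0.18), and Sgcd -0.39 (-0.49 to -0.28) and -0.89 (-0.99 to -0.80). The first Sgcd value turned to 0.18 with adult-myosin nuclei alone and to 0.27 without nuclei above the satellite marker background. Sgcb had -0.33 and -0.12, the second with an interval that reached 0.00 and a value of 0.01 under median-of-ratios scaling. Dag1 was higher in Myh3-low nuclei of the library labelled AHRmKO (0.40, 0.34 to 0.45) and lower in Myh3-high ones (-0.13, -0.18 to -0.08). The first was -0.27 with adult-myosin nuclei alone and -0.06 without fibre nuclei above the satellite marker background. The second was 0.00 under median-of-ratios scaling and 0.24 after the profile of droplets of 200 to under 500 UMIs was subtracted. Sgca and Sspn were higher in Myh3-high nuclei of the library labelled AHRmKO, by 0.84 (0.72 to 0.97) and 0.67 (0.55 to 0.80), and had -0.20 (-0.40 to 0.01) and -0.30 (-0.52 to -0.08) in Myh3-low ones. After the same droplet profile was subtracted, these Myh3-low values were -0.04 and -0.02. In the Myh3-high nuclei Myh3 itself was at 2131 and 3685 CPM. In nuclei with 0.4% or more Myh3 Sgca was at 64.3 and 117 CPM and Sspn at 69.7 and 112 CPM. Under that limit the other ratios between the libraries were -0.51 for Dmd, -0.44 for Sgcd, -0.26 for Dtna, -0.24 for Sntb1 and 0.03 for Utrn, all nearer to 0 than in Myh3-high nuclei as a whole. Those of Sgcb and Dag1, -0.40 and -0.30, were farther from 0.

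The Dmd difference in Myh3-low nuclei was smaller, or of the other sign, in nuclei with adult myosin. Dmd there had a log2 ratio of -0.18 (-0.21 to -0.15) in Myh4-led and 0.59 (0.56 to 0.63) in Myh1/Myh2-led nuclei, and -2.80 (-2.86 to -2.75) in the low-myosin nuclei, where Pax7 was at 96.2 and 474 CPM. Over both adult types together the Dmd ratio was 0.14. Without the fibre nuclei above the satellite marker background it was 0.08 in Myh3-low nuclei. Sgcd had -0.44 (-0.60 to -0.28) in Myh4-led, 0.97 (0.79 to 1.15) in Myh1/Myh2-led and -2.34 (-2.64 to -2.05) in low-myosin nuclei.

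Utrn, Sntb1 and Sspn, in contrast, were further apart between the libraries in adult-myosin nuclei than in all Myh3-low nuclei. Utrn was at 652 and 275 CPM in Myh4-led nuclei (-1.24, -1.40 to -1.09) and at 1134 and 327 CPM in Myh1/Myh2-led ones (-1.79, -1.97 to -1.63). Sntb1 was at 365 and 147 CPM (-1.31, -1.52 to -1.10) and at 863 and 148 CPM (-2.54, -2.79 to -2.30). Sspn was at 45.7 and 17.6 CPM (-1.38, -2.03 to -0.76) and at 66.5 and 24.4 CPM (-1.45, -2.13 to -0.81). Dtna had -1.21 (-1.32 to -1.11) and -0.51 (-0.62 to -0.40). So 4 of 9 members were called lower in Myh4-led nuclei, where 17.6% of 10125 genes were, and 3 of 9 in Myh1/Myh2-led nuclei, where 24.9% of 9291 were. In low-myosin nuclei 3 of 9 were lower (Dmd, Sgcd and Dtna), where 18.6% of 13753 genes were. No member was called higher in these subsets. In either direction, the rule set at the start, 27.6% of all genes were called in Myh4-led, 35.6% in Myh1/Myh2-led and 32.5% in low-myosin nuclei.

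Myh3 moved with these values: the adult-myosin nuclei of the library labelled AHRfl/fl had 492 and 617 CPM of Myh3 and those of the other 122 and 120 CPM, and Utrn, Sntb1 and Sspn were among the genes with higher levels at higher Myh3 in each library. Droplets of 200 to under 500 UMIs had Myh3 at 0.291% and 0.0427% of UMIs. In the same droplets Utrn was at 280 and 511 CPM, Sntb1 at 235 and 508 CPM and Sspn at 75.7 and 29.0 CPM. The free RNA estimate from these droplets was 45.9 and 66.0 CPM for Utrn and 38.6 and 65.6 CPM for Sntb1. From barcodes of at most 100 UMIs it ran the other way, at 147 and 40.4 CPM for Utrn and 121 and 31.3 CPM for Sntb1. For Sspn it was 12.4 and 3.74 CPM with the first profile and 12.8 and 3.31 CPM with the second. The part of Myh3-rich RNA in the ratios of adult nuclei was not tested. Ahr was at 15.1 CPM (10.2 to 21.5) and 9.70 CPM (5.54 to 15.8) in Myh4-led and at 30.01 CPM (22.3 to 39.5) and 8.79 CPM (4.02 to 16.7) in Myh1/Myh2-led nuclei, on 30, 16, 51 and 9 UMIs.

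**Figure D4:**
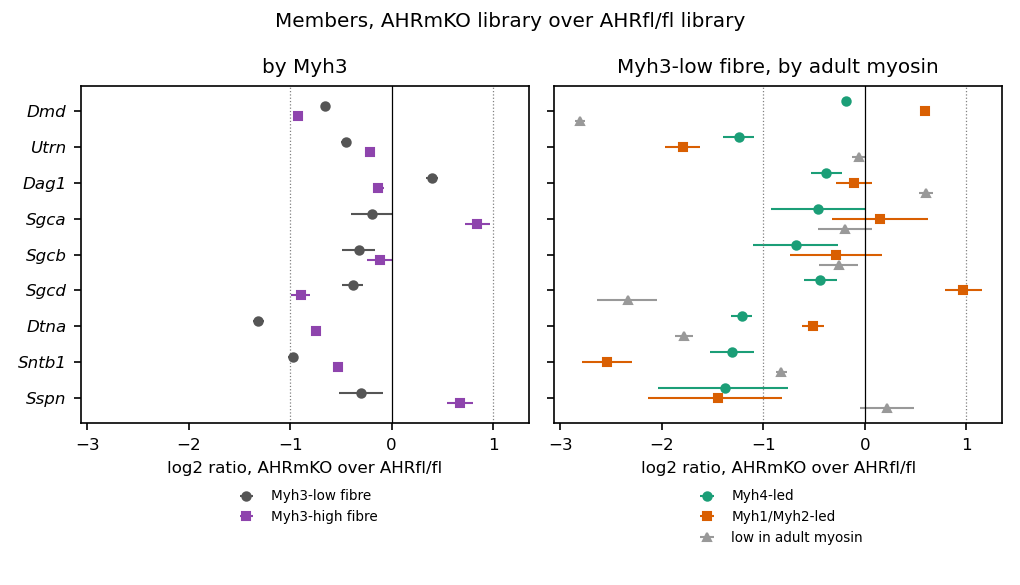
Log2 ratio of each member, library labelled AHRmKO over library labelled AHRfl/fl, in Myh3-low and Myh3-high fibre nuclei (left) and in 3 subsets of Myh3-low fibre nuclei (right). Bars are exact 95% counting intervals and dotted lines are 2-fold; Utrn, Sntb1 and Sspn lie beyond -1 in both adult-myosin subsets, and Dmd lies near 0 in Myh4-led nuclei and at -2.80 in low-myosin ones.

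Outside fibres Utrn had log2 ratios of -0.18 in satellite cells, 0.13 in fibroadipogenic nuclei, 0.02 in macrophages, 0.20 in adipocytes and 0.40 (0.30 to 0.49) in endothelial nuclei. Sgcd had 0.32 (0.19 to 0.46) in fibroadipogenic nuclei and 0.20 (0.04 to 0.36) in adipocytes. In satellite cells 0 of 9 members were called (24.5% of all genes). Dag1 had -0.34, Sntb1 -0.55 and Sspn 0.00 (-0.19 to 0.19) there, and Dtna, the farthest, -0.80.

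In macrophages 4 of 9 members were called lower (21.1% of all genes, and 25% in either direction): Sspn (15.7 and 3.54 CPM), Sgca (9.02 and 2.53), Dag1 (213 and 85.0) and Sgcb (31.5 and 13.5). Free RNA was estimated at 12.4 to 12.8 CPM of Sspn, 8.40 to 14.7 of Sgca, 134 to 146 of Dag1 and 19.4 to 28.9 of Sgcb in the library labelled AHRfl/fl. It was estimated at 3.31 to 3.74, 2.11 to 3.38, 26.5 to 29.2 and 4.02 to 4.65 CPM in the other. Those 4 genes were 2.61 to 3.60-fold lower in the AHRmKO droplets of 200 to under 500 UMIs than in the AHRfl/fl ones. In endothelial nuclei 3 of 8 members with enough UMIs were called lower (Sntb1, Dag1 and Sspn), against 16.1% of all genes, and 21% in either direction. Sspn rested on 30 and 10 UMIs with an interval of -2.22 to 0.05. Fibroadipogenic nuclei had 1 of 9 lower (Sgca, against 17.9%, and 23.7% in either direction) and adipocytes 1 of 8 (Dtna, against 15.1%, and 20.1% in either direction). No member was called higher in these classes. The part of free RNA in these ratios was not tested.

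Around the complex, a list of 47 genes was followed: other subunits, laminins and further matrix ligands, membrane repair and junction genes, and the enzymes that build the sugar chains of dystroglycan. In Myh3-high over Myh3-low nuclei of the library labelled AHRfl/fl 0 of 46 with enough UMIs were called higher and 3 lower, against 1.48% and 4.24% of all genes. With the label AHRmKO 2 of 43 were higher and 8 lower, against 7.16% and 15.5%. The medians of these 46 and 43 genes were -0.02 and -0.03. Nos1, the nitric oxide synthase that syntrophins hold at the membrane, was lowest in both. It was at 75.5 and 28.9 CPM in Myh3-low and Myh3-high nuclei of the library labelled AHRfl/fl (log2 ratio -1.38) and at 115 and 11.4 CPM in the other (-3.34). Cav3, the muscle caveolin that binds dystroglycan, was at the other end, from 51.5 to 94.3 CPM (0.87) and from 11.5 to 71.6 CPM (2.64). Dysf, the membrane repair protein dysferlin, went from 616 to 925 CPM (0.59) and from 216 to 944 CPM (2.13).

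Lama2, the laminin chain of the muscle basement membrane, had 0.11 and 0.24, and Itga7, the muscle laminin integrin, 0.34 and -0.03. Lama5 had -1.18 and -1.13, B3galnt2, which adds a sugar to dystroglycan, -1.22 and -1.06, and Lama4 -0.80 and -1.06. Sntb2, the sister of Sntb1, had -0.63 and -1.25 and so pointed against it. Lamb1 had -0.35 and -1.62, and Nrg1, the neuregulin of nerve and muscle, 0.57 and -1.33. Plec and Hspg2 were higher in both (0.58 and 0.72, 0.56 and 0.95), and Pomgnt2 had 0.80 and 0.04.

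**Figure D5:**
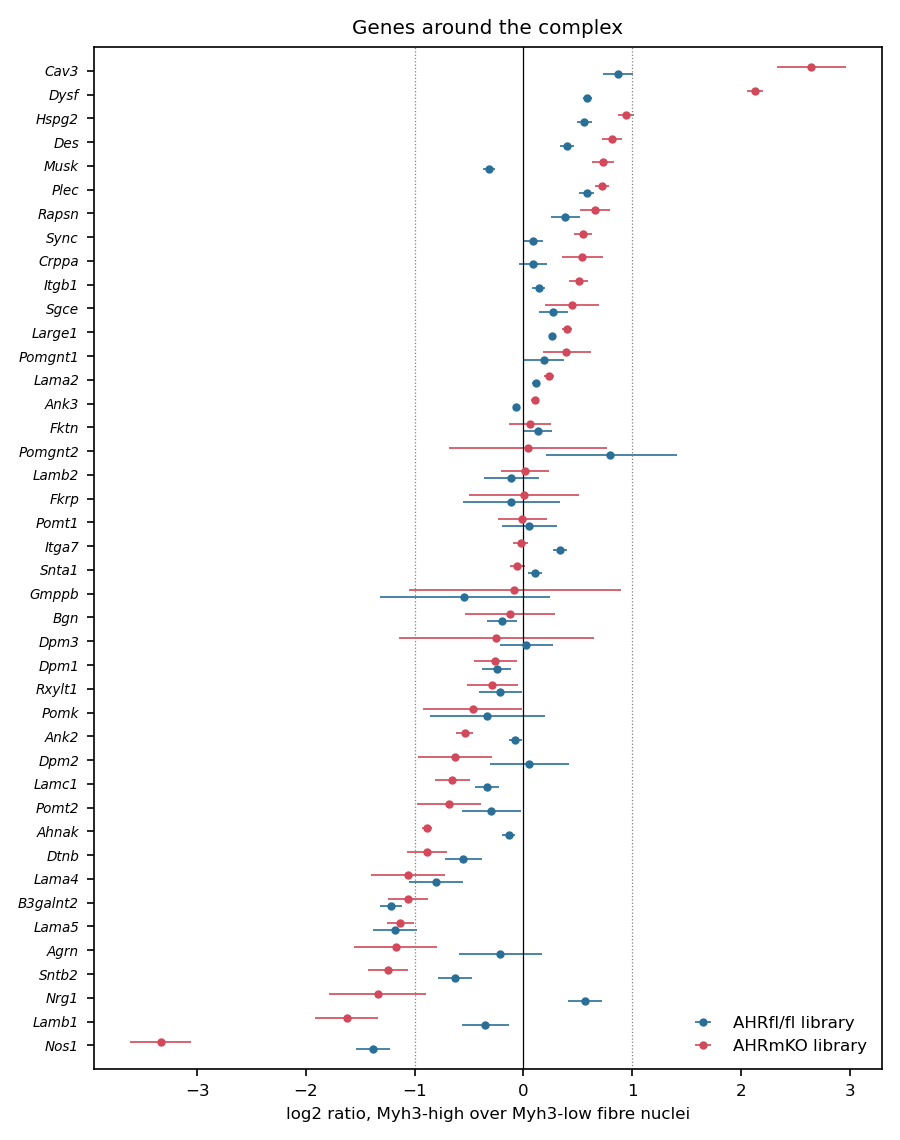
Log2 ratio in Myh3-high over Myh3-low fibre nuclei for 42 genes around the complex with at least 30 UMIs in both comparisons (5 left out), in the library labelled AHRfl/fl (blue) and AHRmKO (red), ordered by the latter. Bars are exact 95% counting intervals and dotted lines are 2-fold; Nos1 is at the bottom and Cav3 and Dysf are at the top.

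Between the libraries, 5 of 44 genes of that list were called higher and 9 lower in Myh3-low nuclei, where 12.2% and 18.3% of all genes were. In Myh3-high nuclei 4 and 6 of 45 were, where 6.88% and 19.3% of all genes were. Lama5 had the highest log2 ratio in both (2.11 and 2.16). Ahnak, a large membrane-associated protein, had 1.89 and 1.15. Dpm3 had -2.85 and -3.13 and Bgn, the matrix proteoglycan biglycan, -2.45 and -2.38. Cav3 had -2.17 in Myh3-low and -0.40 in Myh3-high nuclei, and Musk, the kinase of the neuromuscular junction, -1.59 and -0.54. Nrg1 had -1.45 and -3.34, and B4gat1 -1.87 and -2.92. Agrn had 1.15 and 0.19, Dpm2 1.14 and 0.46, Sync 0.70 and 1.15 and Lamb2 0.94 and 1.07. Nos1 had 0.61 and -1.34, Lama2 -0.54 and -0.41 and Itga7 0.47 and 0.10.

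Each member was last set against all genes for the likeness of its pattern over the 14 class and library points, as a Pearson correlation of log2(CPM + 10). The points share libraries and free RNA, and the values are descriptions. Dtna was most like Itgb6 (0.994), Pdlim3 (0.991) and Dusp27 (0.991). Sgca was most like Ank1 (0.989), Chrng (0.986), the fetal subunit of the acetylcholine receptor, and Ppfia4 (0.985). Dmd was most like Dusp13 (0.987), Trim54 (0.984) and Prkaa2 (0.983), and Sntb1 like Pkp2 (0.977), Uba3 (0.970) and Ptcd3 (0.967). Sgcb was most like C1qtnf3 (0.975), Msto1 (0.971) and Chrnd (0.964), Dag1 like Mrps5 (0.967), Bves (0.963) and Clns1a (0.959), and Sspn like Daam1 (0.9499), Ddr1 (0.949) and BC067074 (0.949). For Sgcd (Thrb, 0.915) and Utrn (Pik3r3, 0.882), which spread beyond muscle, the nearest gene was less alike.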

How the data were processed

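Per the file headers, the deposited matrices hold the authors' raw UMI counts per gene and barcode in the format of Cell Ranger 4, without normalisation or selection of nuclei. The submitters' processing notes name Cell Ranger 7.0.1 and mm10. The annotation, the counting of introns and the use of strand are not given in the sources used here. Antisense genes counted inside Dmd, Sgca, Dtna and Sspn were at no more than 10.3 CPM in fibre nuclei, and reads of such pairs cannot be told apart without strand.

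From the counts, nuclei (at least 2000 UMIs) were classed, fibre nuclei first. A nucleus outside the fibre rule took the class with at least 3 marker UMIs and the highest excess, at least 3-fold, over the background share of the markers. That share was measured in fibre nuclei, or in macrophages for satellite and smooth muscle markers. Of 12 scored classes, 5 are used. The smooth muscle or pericyte class carried Pax7 and was left unnamed, and the others were small. Doublets were scored with Scrublet in scanpy 1.11.5, and the top 0.4% per 1000 nuclei (1453 and 325) were left out in an alternative only, since Scrublet's own limit called 2461 and 0. UMIs were summed per class and library. Poisson and conditional binomial 95% intervals cover counting error only. A count of 0 was set to 3 for a ratio. Free RNA was profiled in barcodes of at most 100 and of 200 to under 500 UMIs, and its share (29.8% and 8.43% with the first profile, 16.4% and 12.9% with the second, AHRfl/fl before AHRmKO) came from 10 fibre genes in macrophages. The lowest and highest estimate are quoted. The ratio code was tested on simulated data. Python 3.11.15, numpy 2.4.6, scipy 1.17.1 and pandas 2.3.3 were used. Promoter windows and gene positions came from RefSeq and GENCODE tables of GRCm38.

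The members, the wider list and the markers were chosen with earlier results of these data known. All 9 members were named. From the wider list the 4 highest and 4 lowest ratios of each fibre comparison, among genes with at least 100 UMIs, were named, and Lama2, Nos1 and Itga7 always; 1 gene of that list is not reported here. For likeness the 3 nearest genes with at least 20 CPM in some point were taken, leaving out class markers. The adult-myosin subsets were added after the data had been seen. There were 18 planned and 4 added alternatives.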

Additional observations from a re-analysis of the deposited data

Results flagged for a closer look

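Several members had ratios of opposite sign under the same contrast, with counting intervals on either side of 0; none of these differences was tested, since each group is 1 library. Between Myh3-high and Myh3-low fibre nuclei Sgcd had a log2 ratio of 0.17 with the label AHRfl/fl, against -0.34 with the label AHRmKO. The first was -0.72 with the Myh3-low side limited to adult myosin and -0.06 without fibre nuclei above the satellite marker background, so that both then pointed down. Between the libraries, AHRmKO over AHRfl/fl, Dag1 had 0.40 in Myh3-low and -0.13 in Myh3-high fibre nuclei, and Sspn had -0.30 and 0.67. The Myh3-low value of Dag1 was -0.27 with adult-myosin nuclei alone and -0.06 without nuclei above the satellite marker background. Its Myh3-high value was 0.00 under median-of-ratios scaling and 0.24 after the profile of droplets of 200 to under 500 UMIs was subtracted. For Sspn the Myh3-low value was -0.02 after that subtraction and -1.45 with adult-myosin nuclei alone. All 22 alternatives kept both signs of Sspn.

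Between Myh1/Myh2-led and Myh4-led fibre nuclei the library labelled AHRfl/fl came first and the one labelled AHRmKO second in these pairs: Dmd had -0.49 and 0.29, Sgcd -0.57 and 0.84, and Dtna -0.12 and 0.58. Between Myh3-high and Myh4-led nuclei Dtna had -0.19 and 0.28.

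Droplets of 200 to under 500 UMIs are not counted as nuclei. They enter the free RNA estimates and the alternative that subtracts their profile, and are otherwise only set beside the levels in nuclei. They had 3 members more than 2-fold higher in the library labelled AHRmKO: Dmd (486 and 1179 CPM, log2 ratio 1.28), Sntb1 (235 and 508 CPM, 1.11) and Sgcd (36.2 and 75.6 CPM, 1.06). Among all genes 14.5% were as much higher. In the same droplets Dag1, Sgcb, Sgca and Sspn were more than 2-fold lower, as were 28.9% of all genes.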

How the results depend on the processing

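The alternatives, 18 planned and 4 added, were run on the library contrast in Myh3-low and Myh3-high nuclei and on the Myh3 contrast in each library, and not on the subsets or other classes. None of the 4 called ratios there changed sign. Sgca and Sspn stayed called between Myh3-high and Myh3-low nuclei of the library labelled AHRmKO under all 22, Sntb1 under 21, and Dtna between the libraries in Myh3-low nuclei under 20. The counts of called members were 1 (library contrast, Myh3-low), 0 (library contrast, Myh3-high), 0 (Myh3 contrast, AHRfl/fl) and 3 (Myh3 contrast, AHRmKO). The first became 2 with a minimum of 1000 or 5000 UMIs, a Myh3 split at 0.2%, nuclei thinned to 2000 UMIs, a mean over nuclei, either free RNA profile subtracted or doublets left out, and 3 with adult myosin or without satellite markers. The second became 2 with a fibre rule of 2%, thinned nuclei, a mean over nuclei or the 200 to under 500 UMI profile subtracted, 3 with the profile of at most 100 UMIs, and 1 without satellite markers. The third became 1 with a fibre rule of 2%, a Myh3 split at 0.05%, adult myosin or without satellite markers. The last became 5 with a fibre rule of 2% or median-of-ratios scaling, and 6 with adult myosin or without satellite markers, and it was 2 with a Myh3 split at 0.2%, where Sntb1 had 0.97, and 4 with a minimum of 5000 UMIs or a fibre rule of 0.5%. All-gene shares past 2-fold in the settings that changed a count were 28% to 42.5% for the first, 25.7% to 40.5% for the second, 6.78% to 9.34% for the third, and 20.1%, 19.6%, 30.9%, 27.5%, 24.6%, 24.5% and 26.6% for the last in the order given. The cause was not tested. The library contrast of Dmd in Myh3-low nuclei ranged from -1.01 to 0.14 and that of Sgcd from -0.69 to 0.27.

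No paired analysis was possible because each group has 1 library and no replicate number. With 1 library a side, genotype, animals, depth, mitochondrial share and free RNA cannot be told apart between the libraries. Members under 100 CPM (Sgca, Sgcb, Sspn) rest on 25 to 113 UMIs for Sspn and 63 to 145 for Sgcb in the adult-myosin subsets, and fewer nuclei cannot show small differences there.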
